A study of Mus musculus with 10 samples.

Results

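The potassium channel genes of mouse quadriceps were taken as all gene symbols that begin with Kcn in the deposited count tables, 97 of 24063 symbols, each represented by the RefSeq transcript with the largest count summed over the 10 libraries. The 97 symbols cover 187 of 33984 transcripts. Muscle RNA was sequenced in 10 libraries, 5 from wild-type C57BL mice whose drinking water carried a supplement named 1C-MIM in the labels (1C-MIM 1 to 5) and 5 from wild-type C57BL mice that drank the facility's water without it (Control 1 to 5). All animals were 17 to 20 months old, and those on 1C-MIM had received it for 1 to 3 months. Animals of both groups had also received an injury to another muscle, the tibialis anterior, and the RNA came from quadriceps that was not injured. The sources used here do not give the composition of 1C-MIM. Each table is one numbered animal, so n counts animals.

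Potassium channels let potassium leave or enter a cell along its electrochemical gradient and so set the resting potential and end the action potential. In muscle fibres, inward rectifiers help to hold the fibre near rest, voltage-gated delayed rectifiers repolarise it, and calcium-activated channels respond to calcium. Many members are not pores themselves: silent subunits join other pore subunits and alter them, and beta, Kcne, Kcnip and Kcnmb proteins attach to pores made by other genes.

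The libraries held 29108462 to 31771296 counts in 1C-MIM and 28521254 to 30595120 in Control after 1 transcript was kept per symbol, and Kcn genes took 0.106 to 0.113% of them in 1C-MIM and 0.0923 to 0.109% in Control. The threshold used throughout was an edgeR quasi-likelihood p under 0.05 after Benjamini-Hochberg adjustment over 13880 genes, of which 1357 passed it as higher and 1642 as lower in the supplemented animals. These are 9.78% and 11.8% of the tested genes, the shares to set beside the counts of each list and subfamily below. All 12 genes of a skeletal myofibre list were present, and their summed level was 198720 to 227194 counts per 1000000 (CPM) in 1C-MIM and 177266 to 199514 CPM in Control. Control 1 carried transcripts of neurons, described with the cell-type lists. These are whole-muscle libraries, in which fewer cells of a type and less RNA per cell cannot be told apart. The animal numbers of the deposited tables fall into 2 number series, the first with replicates 1 to 3 of both groups and the other with replicates 4 and 5, and what the series stand for is not stated. With the series as a covariate, 9 Kcn members were higher and 4 lower. The labels tie no animal to a litter or cage, so the p-values measure the spread between these animals only.

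Of the 97 Kcn symbols, 47 were detected, with 10 or more counts in at least 5 libraries, and 37 of these had 10 or more counts in all 10. The detected members were 10 of 17 pore subunits of the Kcna to Kcnd families, 4 of 10 silent subunits (Kcnf1, Kcng4, Kcns1 and Kcns3), 4 of 13 Kcnq and Kcnh genes, all 8 calcium-, sodium- or pH-activated channels, 5 of 15 inward rectifiers, 6 of 14 Kcnk leak channels, 9 of 17 auxiliary subunits and regulators, and 1 of 3 non-coding transcripts, Kcnq1ot1. Just inside the detection limit, Kcne3 had 10 or more counts in 5 libraries and 93 counts in all. Just outside it, Kcnj3 had 10 or more counts in 4 libraries and 91 in all, and Kcnc2, Kcnd1 and Kcnj13 had them in 3 libraries, with 65, 65 and 75 counts in all. Of the 50 undetected symbols, 26 had 10 counts or fewer over all 10 libraries. They include Kcnj1, the renal outer medullary channel (1 count), Kcnq3, a subunit of the neuronal M-current (8 counts), and Kcne1, the partner of Kcnq1 in heart (2 counts). The silent subunit Kcng3 had 0 counts, which allows up to 3 counts over the 10 libraries, and these limits cover counting error only.

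Expressed per kilobase of transcript so that genes can be compared, the potassium channel RNA of quadriceps was concentrated in a few members. Kcna7, a Shaker-type delayed rectifier subunit of striated muscle, held 23.1% of the summed CPM per kilobase of the 47 detected members, and with Kcnj11 and Kcnc4 this came to 58.1%. The 12 most abundant members held 90.9%. Kcna7 had 68.0 ± 3.41 CPM per kilobase in 1C-MIM and 58.3 ± 4.19 in Control (mean ± SD, n = 5 each). Kcnj11, the pore of the ATP-sensitive channel, had 60.6 ± 2.77 CPM per kilobase in 1C-MIM and 52.4 ± 2.37 in Control. Kcnc4, a Shaw-type channel that in muscle is known to join Kcne3, had 40.5 ± 3.00 and 37.5 ± 2.03. Next in order came Kcnj12, Kcng4, Kcnc1, Kcnj8, Kcnj2 and Kcnn1, the last at 6.64 ± 0.235 CPM per kilobase in 1C-MIM and 6.69 ± 0.593 in Control. From Kcna7 down to Kcnj2 each member was above the next in all 10 libraries. Kcnj2 was above Kcnn1 in 7 of 10, so the order of these neighbours is not fixed by the libraries. Kcnma1, also among the 12, had 6.69 ± 0.751 CPM per kilobase in 1C-MIM and 5.16 ± 0.638 in Control.

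**Figure D1:**
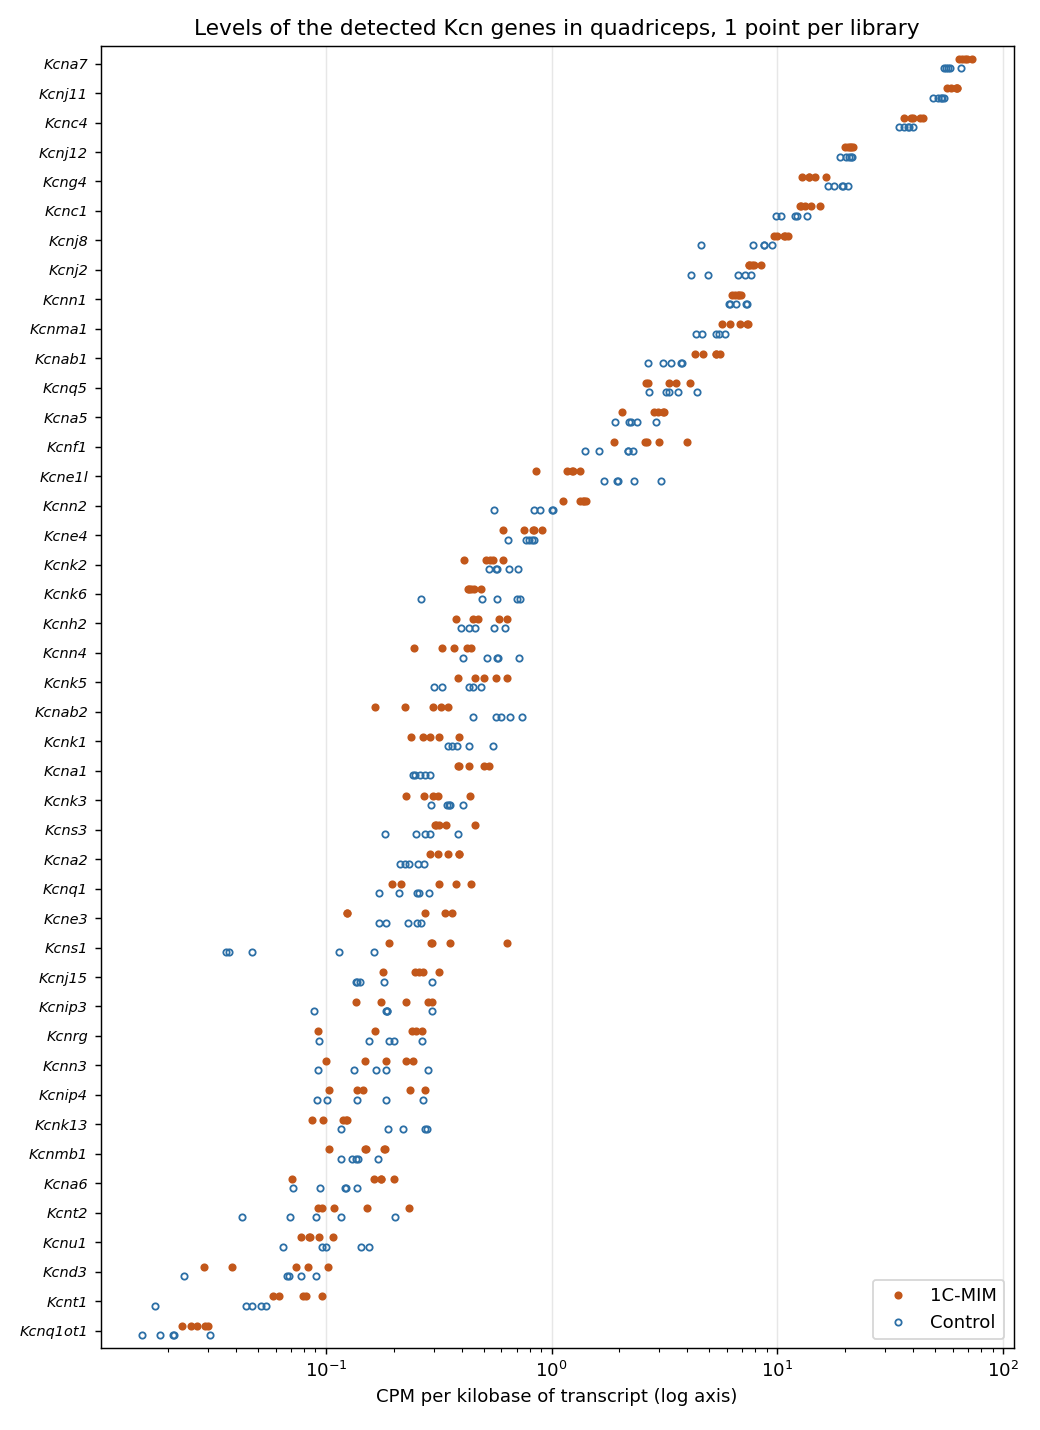
Levels of 44 of the 47 detected Kcn genes in CPM per kilobase of transcript on a log axis, with a point for each of the 5 1C-MIM libraries (filled) and the 5 Control libraries (open). Kcna7, Kcnj11 and Kcnc4 stand at the top in every library, and most members lie below 1 CPM per kilobase.

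Against the supplement, 46 detected members could be tested, since Kcnip4 did not pass the filter on low counts. In 1C-MIM 9 of the 46 were higher, 5 were lower and 32 did not pass the test. The higher members included Kcns1, Kcna1, Kcnn2, Kcnab1, Kcna2, Kcnma1, Kcna7 and Kcnj11, and the 5 lower members were Kcnab2, Kcnk13, Kcne1l, Kcnn4 and Kcng4. All calls together are 30.4% of the tested members, where 21.6% of all tested genes were called; 19.6% of members were higher, against 9.78% of all genes, and 10.9% lower, against 11.8% of all genes. The groups did not overlap in 12 of 46 members, 26.1%, where the share over all tested genes was 14.6%. The median log2 fold change was 0.18 over the 46 members and 0.00 over all tested genes. The count of lower members was 3 without 1C-MIM 4, Control 3 or Control 5, and that of higher members was 8 to 12 with any 1 library left out. The tested members' median transcript had 3546.5 bases, against 2817 bases over all tested genes, and a fit was also made without each library's trend of counts with transcript length. With that length trend removed, 7 members were higher and 5 lower, where 1159 of all 13880 tested genes were higher and 1098 lower. Of the 14 calls, 7 higher and 4 lower ones were kept. The median was 0.16, against 0.02 over all genes.

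**Figure D2:**
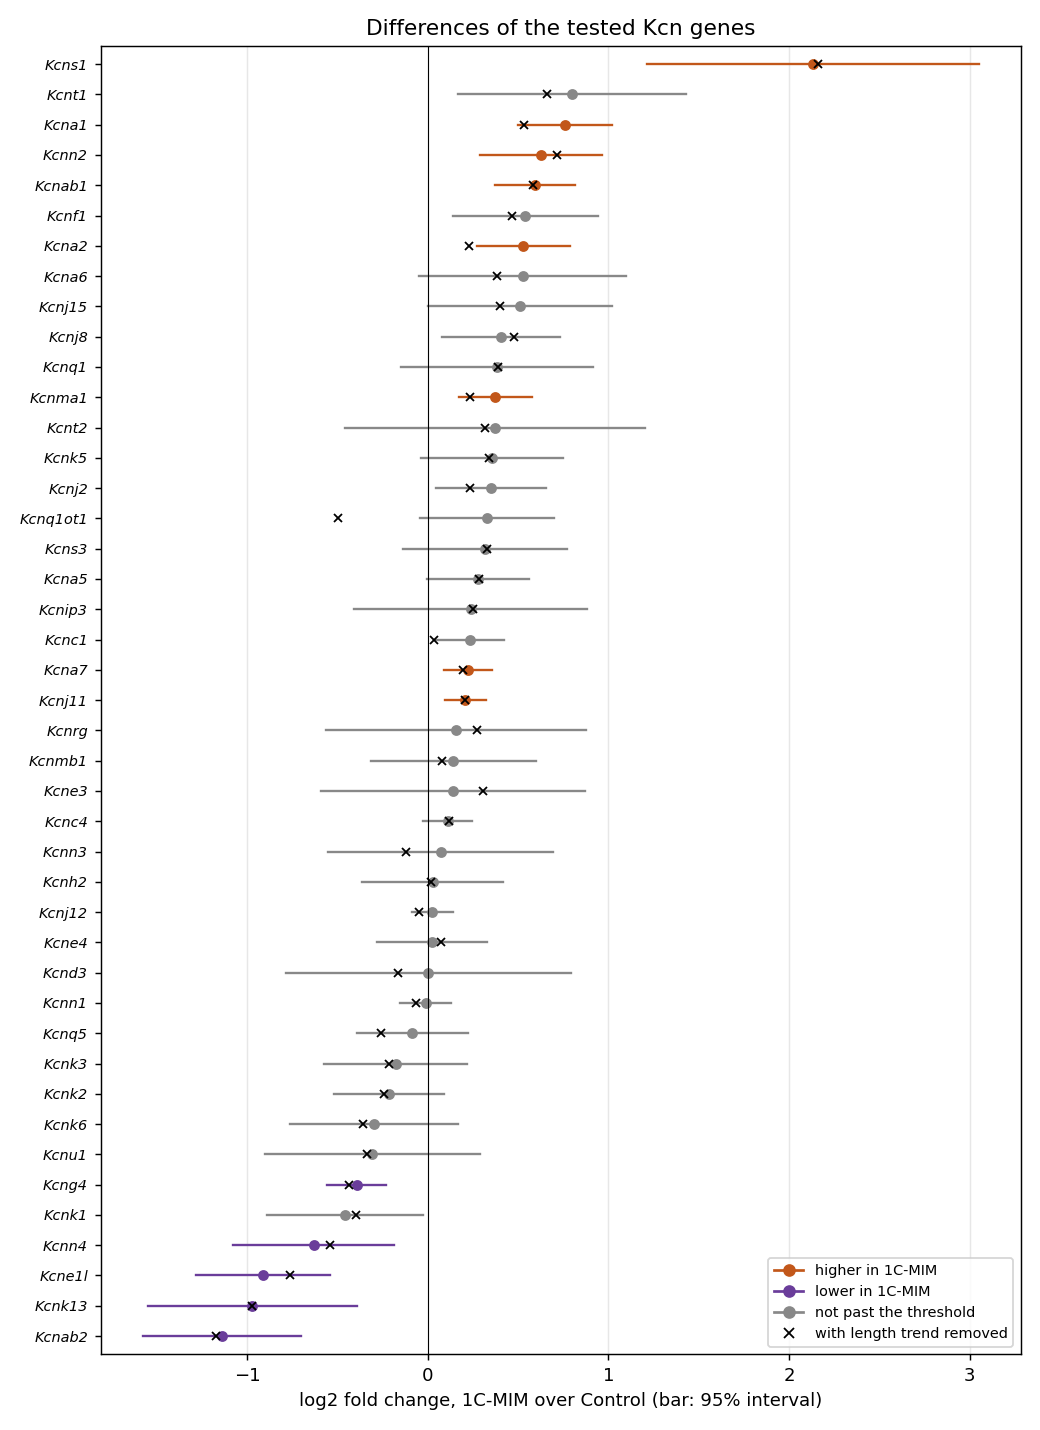
Log2 fold changes of 1C-MIM over Control for 43 of the 46 tested Kcn genes, with 95% intervals as bars and the value with each library's length trend removed as a cross. Kcns1 lies farthest to the right at 2.13 and Kcnab2 farthest to the left at -1.14; the crosses of Kcna2 and Kcnq1ot1 lie well to the left of their points.

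Among the voltage-gated pore subunits, 4 of 10 were higher in 1C-MIM, 0 were lower and 6 did not pass the test. Kcna7, the most abundant member, had 255, 231, 223, 242 and 238 CPM in 1C-MIM 1 to 5, against 200.4, 228, 191, 204 and 194 in Control 1 to 5. Control 2 lay inside the 1C-MIM range and the other 4 Controls below it. Its log2 fold change was 0.22 (SE 0.06, edgeR adjusted p = 0.0208), and the call was lost with library totals as the scaling (adjusted p = 0.0829) and when 1C-MIM 4 (0.0534), Control 3 (0.0503) or the pair of Control 1 and Control 5 (0.0808) was left out.

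Kcna1 and Kcna2 encode Shaker-type subunits known from the axon membrane beside the nodes of Ranvier. Kcna1 had 3.49, 3.47, 4.72, 3.87 and 4.50 CPM in 1C-MIM, against 2.19, 2.48, 2.22, 2.60 and 2.36 CPM in Control, with every 1C-MIM library above every Control (log2 fold change 0.76, SE 0.12, edgeR adjusted p = 0.00171; 0.53 with the length trend removed, adjusted p = 0.0252). Kcna2 had 3.35, 4.50, 4.52, 4.04 and 3.64 CPM in 1C-MIM, against 3.15, 2.48, 2.72, 2.60 and 2.96 CPM in Control. Its groups did not overlap either (0.53, SE 0.12, edgeR adjusted p = 0.00944), but its transcript of 11582 bases is the longest of the called members, and with the length trend removed the log2 fold change was 0.23 (adjusted p = 0.213). Control 1, the library with neuronal transcripts, was the lowest of the 10 libraries for Kcna1 and the highest Control for Kcna2. Of 16 Schwann cell genes, 4 were called higher, 0 lower and 12 did not pass the test, with overlapping summed levels of 121 to 143 CPM in 1C-MIM and 104 to 125 CPM in Control, and their part in the result was not tested.

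Of the Shaw-type channels, Kcnc1, the channel of fast-firing neurons, had 98.2, 120.0, 98.9, 109.9 and 103 CPM in 1C-MIM, against 80.7, 105, 95.5, 93.0 and 76.8 in Control. It did not pass the test (log2 fold change 0.23, 95% interval 0.04 to 0.42, edgeR adjusted p = 0.0716), and its log2 fold change was 0.04 with the length trend removed. Kcnc4 differed by 0.11 (95% interval -0.02 to 0.25, edgeR adjusted p = 0.213). Kcna5, Kcna6 and Kcnd3 did not pass the test either, with log2 fold changes from 0.00 for Kcnd3 up to 0.53 for Kcna6. Kcna6 did pass without 1C-MIM 1, its lowest 1C-MIM library (0.71, edgeR adjusted p = 0.0303), and Kcna5 without 1C-MIM 3 (0.38, edgeR adjusted p = 0.0397). Without Control 2, Kcnc1 passed as well (0.29, edgeR adjusted p = 0.0255). For Kcna6, 39.6% of the exonic bases in the GENCODE M21 annotation lie under an antisense gene. Strand is not stated for the counting, so reads on those bases cannot be told from that gene's.

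The silent subunits, which form no channel on their own, moved in both directions: 1 of 4 was higher, 1 lower and 2 did not pass the test. Kcns1, known in mice from sensory neurons, had the largest difference of all tested members. It had 1.73, 0.515, 0.797, 0.800 and 0.959 CPM in 1C-MIM, from 50, 15, 24, 24 and 29 counts, against 0.445, 0.0978, 0.309, 0.128 and 0.101 CPM in Control, from 13, 3, 10, 4 and 3 counts. Every 1C-MIM library was above every Control, and 1C-MIM 1 was the highest. The log2 fold change was 2.13 (SE 0.43, 95% interval 1.21 to 3.05, edgeR adjusted p = 0.00534), and it was 1.82 to 2.54 under the 22 alternatives that tested it, past the threshold in all. Control 1 was the highest of the Controls, and it lay below every 1C-MIM library.

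Kcng4, the most abundant silent subunit, had 52.7, 62.8, 48.9, 56.0 and 52.4 CPM in 1C-MIM, against 67.6, 73.7, 74.3, 78.6 and 64.0 CPM in Control. The groups did not overlap, and Kcng4 was 23.9% lower (edgeR log2 fold change -0.39, SE 0.08, adjusted p = 0.00409). With the length trend removed it was lower by more, at -0.44 (adjusted p = 0.000387), and the call held under all 23 alternatives. Kcnf1, another silent subunit, had 19.0, 9.10, 12.7, 12.5 and 14.4 CPM in 1C-MIM, against 6.74, 10.47, 10.4, 10.96 and 7.81 CPM in Control. It did not pass the test (0.54, 95% interval 0.14 to 0.94, edgeR adjusted p = 0.0538), with 1C-MIM 2 among the Controls. It passed under 4 of 23 alternatives, among them the omission of 1C-MIM 2 (edgeR adjusted p = 0.0206). The others kept every library and were DESeq2, a filter of 1 CPM in 5 libraries and a fit without robust estimation. Kcns3 differed by 0.32 (95% interval -0.14 to 0.77).

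**Figure D3:**
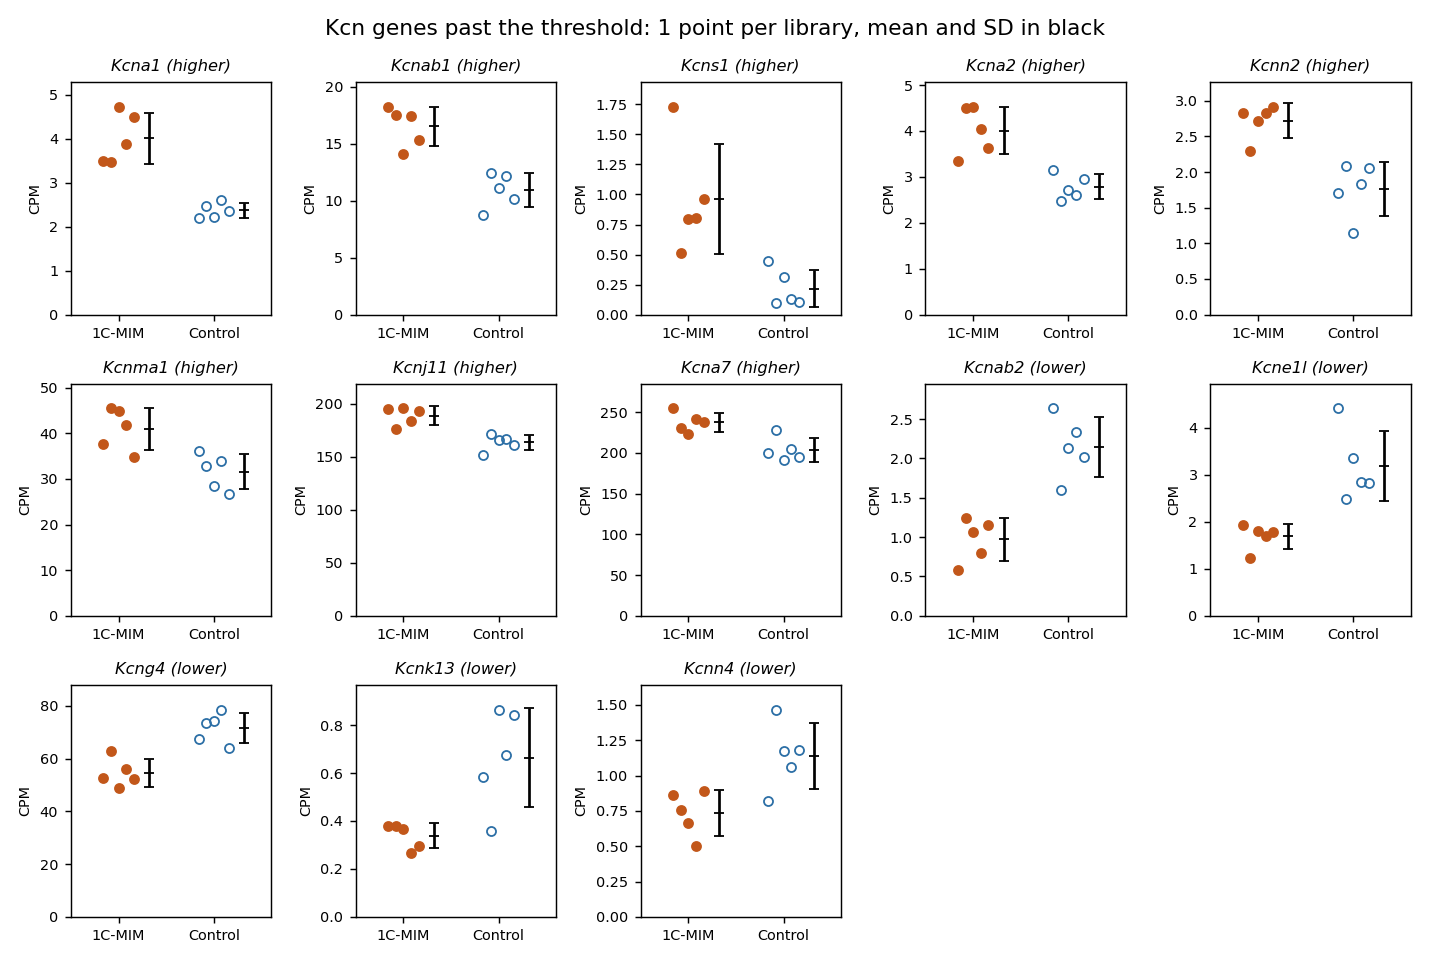
CPM of 13 of the 14 Kcn genes past the threshold, with a point per library (1C-MIM filled, Control open) and the mean and SD of each group in black; every axis starts at 0. The groups do not overlap except in Kcnma1, Kcna7, Kcnk13 and Kcnn4.

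Promoter sequences are shown for 4 called members with a single start in the RefSeq table of promoters, 2 of the higher and 2 of the lower, so that the bases before genes that moved in opposite directions can be compared. Each is the 250 bases before the start, read 5′ to 3′ along the gene, with matches to the E-box, CANNTG, the site of muscle and clock basic helix-loop-helix factors, in capitals.
Kcns1, GRCm38.p6, chr2:164171114-164171363, minus strand: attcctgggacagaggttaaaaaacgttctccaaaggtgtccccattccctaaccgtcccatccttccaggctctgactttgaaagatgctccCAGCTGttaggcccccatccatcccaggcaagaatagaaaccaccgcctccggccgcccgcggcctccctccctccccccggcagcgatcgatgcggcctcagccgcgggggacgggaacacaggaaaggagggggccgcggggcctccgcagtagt
Kcna7, GRCm38.p6, chr7:45405710-45405959, plus strand: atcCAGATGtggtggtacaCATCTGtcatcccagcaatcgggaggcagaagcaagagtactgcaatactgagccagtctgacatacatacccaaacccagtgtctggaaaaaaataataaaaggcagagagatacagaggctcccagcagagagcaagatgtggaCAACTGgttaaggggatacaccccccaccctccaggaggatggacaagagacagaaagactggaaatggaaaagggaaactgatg
Kcng4, GRCm38.p6, chr8:119635681-119635930, minus strand: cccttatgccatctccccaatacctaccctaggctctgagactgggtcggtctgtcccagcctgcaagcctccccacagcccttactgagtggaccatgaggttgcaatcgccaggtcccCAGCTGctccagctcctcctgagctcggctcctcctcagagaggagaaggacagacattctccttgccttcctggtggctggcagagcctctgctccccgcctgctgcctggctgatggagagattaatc
Kcne1l, GRCm38.p6, chrX:142306199-142306448, minus strand: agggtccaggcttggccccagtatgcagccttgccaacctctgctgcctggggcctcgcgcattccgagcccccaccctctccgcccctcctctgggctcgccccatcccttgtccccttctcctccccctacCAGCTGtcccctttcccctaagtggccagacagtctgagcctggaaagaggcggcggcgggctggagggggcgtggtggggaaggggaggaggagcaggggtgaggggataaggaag
Kcna7 holds 3 matches and the other 3 hold 1 each, and in Kcns1, Kcng4 and Kcne1l the match reads CAGCTG. How many of all promoters hold CAGCTG was not counted. Of the promoters not shown, Kcna2 holds it as well, whereas Kcnk13 and Kcnn4 hold matches with other letters. Promoter rows were used for 10 of the 14 called members, and whether the others have rows in the table is not reported. Of the 10, 8 had a single start. An E-box match lay in 7 of these 8, with Kcnma1 as the exception, and 66.2% of all 32851 promoters of this length hold one. Shares over all promoters were taken from the whole table, not from promoters chosen as those of the 8 members were. AP-1 sites (TGANTCA), STAT sites (TTCNNNGAA) and TATAAA, searched on both strands, had 0 matches in these 8 promoters, and 6.75, 7.02 and 12.4% of all promoters hold them. The tables' build is GRCm38.p6, whereas the submitters' processing notes name GRCm39.

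Of the inward rectifiers, which pass potassium more easily into the cell than out, 1 of 5 detected members was higher in 1C-MIM, 0 were lower and 4 did not pass the test. Kcnj11 had 195, 176, 195, 184 and 193 CPM in 1C-MIM, against 152, 171, 166, 166 and 161 CPM in Control. The groups did not overlap, and the difference was small, 15.6% higher (edgeR log2 fold change 0.21, SE 0.05, adjusted p = 0.0165; 0.21 with the length trend removed). The call was lost with library totals as the scaling (adjusted p = 0.0715) and without Control 1 and Control 5 together (0.0689). Its partners are the sulfonylurea receptors. Abcc8 had 5.07 ± 0.578 CPM in 1C-MIM and 3.32 ± 0.366 CPM in Control (edgeR log2 fold change 0.61, SE 0.11, adjusted p = 0.00354), and Abcc9, the main receptor of muscle, had 287 ± 46.8 and 213 ± 43.9 CPM and did not pass the test (0.43, SE 0.15, adjusted p = 0.0524).

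Kcnj8, the ATP-sensitive pore of pericytes and smooth muscle, had 24.4, 21.8, 21.1, 23.6 and 23.5 CPM in 1C-MIM, against 10.03, 19.2, 20.8, 19.2 and 17.1 CPM in Control. The groups did not overlap, yet the test was not passed (edgeR log2 fold change 0.40, 95% interval 0.08 to 0.73, adjusted p = 0.0724), and without Control 1, the lowest library, it was passed (edgeR adjusted p = 0.0245, log2 fold change 0.26). Kcnj8 also passed under DESeq2 with every library kept, and so under 2 of 23 alternatives. Kcnj2, which carries the resting inward rectifier current, had 42.1, 40.6, 42.9, 46.2 and 40.6 CPM in 1C-MIM, against 22.6, 41.5, 36.5, 39.0 and 27.0 CPM in Control. Control 1 and Control 5 lay far below the other Controls, and the test was not passed (0.35, 95% interval 0.04 to 0.66, edgeR adjusted p = 0.0918); without Control 2 it was (0.44, edgeR adjusted p = 0.0376). Kcnj12, a close relative of Kcnj2, differed by 0.03 (95% interval -0.09 to 0.14, edgeR adjusted p = 0.75). Over all tested genes, 9.78% were called higher and 11.8% lower. Smooth muscle and pericyte genes were called higher in 3 of 15 and lower in 1, and with the length trend removed 1 was higher and 1 lower. Without Des, a gene that muscle fibres also express strongly, they summed to 432 to 576 CPM in 1C-MIM and 405 to 468 CPM in Control. Endothelial genes were higher in 8 of 14 and lower in 0, and with the length trend removed 5 were higher and 0 lower. They summed to 403 to 474 CPM in 1C-MIM and 302 to 401 CPM in Control. Their part in these values was not tested.

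Auxiliary subunits moved in opposite directions. Kcnab1 and Kcnab2 are beta subunits that bind Kcna-type pores inside the cell. Kcnab1 had 18.2, 17.5, 14.1, 17.4 and 15.3 CPM in 1C-MIM, against 8.76, 12.4, 11.1, 12.2 and 10.2 CPM in Control, and every 1C-MIM library was above every Control (edgeR log2 fold change 0.59, SE 0.10, adjusted p = 0.00244). Kcnab2 had 0.587, 1.24, 1.06, 0.800 and 1.16 CPM in 1C-MIM, against 2.64, 1.598, 2.13, 2.34 and 2.02 CPM in Control, and every 1C-MIM library was below every Control (-1.14, SE 0.20, edgeR adjusted p = 0.00282). Both calls held under all 23 alternatives, with the log2 fold change of Kcnab1 at 0.47 to 0.65 and that of Kcnab2 at -1.24 to -1.004. Kcne1l, current symbol Kcne5, is a single-pass subunit that damps Kcnq1 channels. It had 1.93, 1.24, 1.79, 1.70 and 1.79 CPM in 1C-MIM, against 4.42, 2.48, 3.37, 2.85 and 2.83 CPM in Control. The groups did not overlap, and Control 1 was the highest library (-0.91, SE 0.17, edgeR adjusted p = 0.00388; -0.76 with the length trend removed, adjusted p = 0.00744). The other 5 tested auxiliary genes, Kcne3, Kcne4, Kcnip3, Kcnmb1 and Kcnrg, had log2 fold changes of 0.02 to 0.24 and did not pass the test.

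Of the calcium-, sodium- and pH-activated channels, 2 of 8 were higher, 1 lower and 5 did not pass the test. Kcnma1, the large-conductance calcium-activated channel, had 37.7, 45.5, 44.9, 41.7 and 34.9 CPM in 1C-MIM, against 36.1, 32.9, 28.4, 33.9 and 26.8 CPM in Control. Only 1C-MIM 5 lay inside the Control range (log2 fold change 0.37, SE 0.09, edgeR adjusted p = 0.0153). Kcnma1 is listed with 22 transcripts, and with counts summed over them it did not pass the test (0.48, SE 0.17, edgeR adjusted p = 0.0593). Kcnn2, a small-conductance calcium-activated channel, had 2.83, 2.301, 2.72, 2.84 and 2.91 CPM in 1C-MIM, against 1.71, 2.09, 1.14, 1.83 and 2.05 CPM in Control. Its groups did not overlap (0.63, SE 0.16, edgeR adjusted p = 0.0148), and the call held under all 23 alternatives. Kcnn1, the most abundant small-conductance channel here, differed by -0.01 (95% interval -0.15 to 0.13), and Kcnn3, known in rats to appear in denervated fibres, by 0.07 (-0.55 to 0.69). Denervation and immature-fibre genes were lower in 9 of 16 and higher in 1, and 10 of the 16 were highest in Control 1. Without Actc1, the most abundant, they summed to 215 to 257 CPM in 1C-MIM, 382.6 CPM in Control 1 and 256 to 308 CPM in Control 2 to 5, and their part in these values was not tested. Kcnt1, a sodium-activated channel, did not overlap between the groups, at 0.343 to 0.567 CPM in 1C-MIM and 0.103 to 0.321 CPM in Control, and did not pass the test (edgeR adjusted p = 0.0668).

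Kcnn4 and Kcnk13 are known from leukocytes and their relatives, Kcnn4 as the intermediate-conductance calcium-activated channel of T cells and macrophages and Kcnk13 as a leak channel of mouse microglia. Kcnn4 had 0.864, 0.756, 0.664, 0.500 and 0.893 CPM in 1C-MIM, against 0.822, 1.47, 1.17, 1.06 and 1.18 CPM in Control. Control 1 lay among the 1C-MIM libraries and the other 4 Controls above them (log2 fold change -0.63, SE 0.21, edgeR adjusted p = 0.0448). This call was lost under 11 of 22 alternatives, namely no filter on low counts (adjusted p = 0.0629), replicate number as a block (0.0505), animal series as a covariate (0.0556), the length trend removed (0.0873) and the omission of any 1 of 1C-MIM 2 to 4 or of Control 2 to 5, with an adjusted p of up to 0.119. Kcnk13 had 0.380, 0.378, 0.365, 0.267 and 0.298 CPM in 1C-MIM, against 0.582, 0.359, 0.865, 0.673 and 0.842 CPM in Control, with Control 2 inside the 1C-MIM range (-0.97, SE 0.27, edgeR adjusted p = 0.0223). Its call was lost on omitting 1C-MIM 4 (0.0637), Control 3 (0.0537), Control 5 (0.0558) or the pair of Control 1 and Control 5 (0.0725). Macrophage genes were lower beside these members: 16 of 18 were called lower and 0 higher, and their summed level was 193 to 270.3 CPM in 1C-MIM and 342 to 638 CPM in Control. Lymphocyte genes were lower in 6 of 10 tested and higher in 0, at 6.64 to 11.2 CPM in 1C-MIM and 17.3 to 37.4 CPM in Control. Control 2 had the lowest macrophage sum of the Controls. Its lymphocyte sum was the highest, at 37.4 CPM against 17.3 to 23.1 CPM in the other Controls. Control 2 was also the lowest Control for Kcnk13 and for Kcnab2, and the highest for Kcnn4. Control 3 had the highest macrophage sum and was the highest Control for Kcnk13, whereas Kcnab2 was highest in Control 1. The part of these cells in the lower values was not tested.

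Of the 6 leak channels, which conduct at rest, Kcnk13 alone passed the test. Kcnk6, known in mice from macrophages, had 1.83 ± 0.0946 CPM in 1C-MIM and 2.26 ± 0.765 CPM in Control, with Control 2 at 1.08 CPM below all other libraries (log2 fold change -0.30, 95% interval -0.76 to 0.17). Without Control 2 it passed the test as lower (-0.47, edgeR adjusted p = 0.0342). Kcnk1, Kcnk2 and Kcnk3 had log2 fold changes of -0.46, -0.22 and -0.18, and Kcnk5 of 0.36. None of the 4 detected Kcnq and Kcnh genes passed the test, with log2 fold changes of -0.09 for Kcnq5 to 0.38 for Kcnq1. Kcnq5, an M-type channel also known from skeletal muscle, was lower by 0.26 on the log2 scale with the length trend removed (edgeR adjusted p = 0.0439). Kcnq1ot1, the imprinted non-coding transcript antisense to Kcnq1, differed by 0.33 (95% interval -0.04 to 0.70), by 0.50 without Control 5 (edgeR adjusted p = 0.0406), and by -0.50 with the length trend removed; its listed length of 83437 bases lies far beyond that of the other members.

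Among 16 partner genes of potassium channels, 10 could be tested, and 1 was higher, Abcc8, 0 were lower and 9 did not pass the test, with a median log2 fold change of 0.18. With the length trend removed, Amigo1, an adhesion protein that attaches to delayed rectifiers, was also called, as lower (-0.30, edgeR adjusted p = 0.00411; -0.17 and 0.0513 without that step). Of 20 genes for other channels, pumps and transporters of the fibre membrane, 7 were higher, 2 lower and 11 did not pass the test, with a median of 0.16. Cacna1s, the voltage sensor of excitation-contraction coupling, had 1529 ± 90.1 CPM in 1C-MIM and 1028 ± 67.7 CPM in Control (edgeR log2 fold change 0.57, SE 0.06, adjusted p = 0.000123). Fxyd5, a regulator of the sodium pump, fell by 0.75 (SE 0.12, edgeR adjusted p = 0.00174). With the length trend removed, 3 of the 20 were higher and 2 lower.

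Control 1 carried neuronal transcripts. Of 30 neuron genes, 25 were highest in Control 1. Its level was 4.13 times the median of the other 4 Controls for the median gene, taken over the genes whose median in those Controls was above 0. Without Camk2a, a kinase gene that muscle also expresses strongly, the list summed to 15.7 to 18.4 CPM in 1C-MIM, to 57.4 CPM in Control 1 and to 15.1 to 17.9 CPM in Control 2 to 5. Among detected Kcn members, Control 1 was the highest library for 6 of 47, Kcnab2, Kcne1l, Kcnk2, Kcnn3, Kcnq5 and Kcnu1, while 1C-MIM 1, 2 and 3 were the highest for 7, 8 and 8. Control 1 and Control 5 were each the lowest for 10. Among the 50 undetected members, 1C-MIM 2 and Control 1 were each the highest for 10, and their summed counts were 91 to 101 in 1C-MIM, 131 in Control 1 and 86 to 132 in Control 2 to 5. Kcnd2, the Shal-type channel of neuronal dendrites, had 4, 1, 4, 1 and 0 counts in 1C-MIM, against 10, 3, 1, 0 and 1 in Control. It was the only member highest in Control 1 of all 10 libraries with at least 10 counts there and a level at least 3 times the median of the other Controls. Kcns1, with 13 counts in Control 1 against a median of 3.5 in the other Controls, was past that fold but lower there than in every 1C-MIM library. Others with few counts that were highest in Control 1 included Kcnip1 and Kcns2. Kcnip1, a calcium-binding partner of Kcnd channels, had 6 counts there and at most 1 in any other library. Kcns2 had 3 counts there and 0 elsewhere. Without Control 1, 10 members passed the test as higher and 5 as lower, and all 14 calls made with it were among them.

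**Figure D4:**
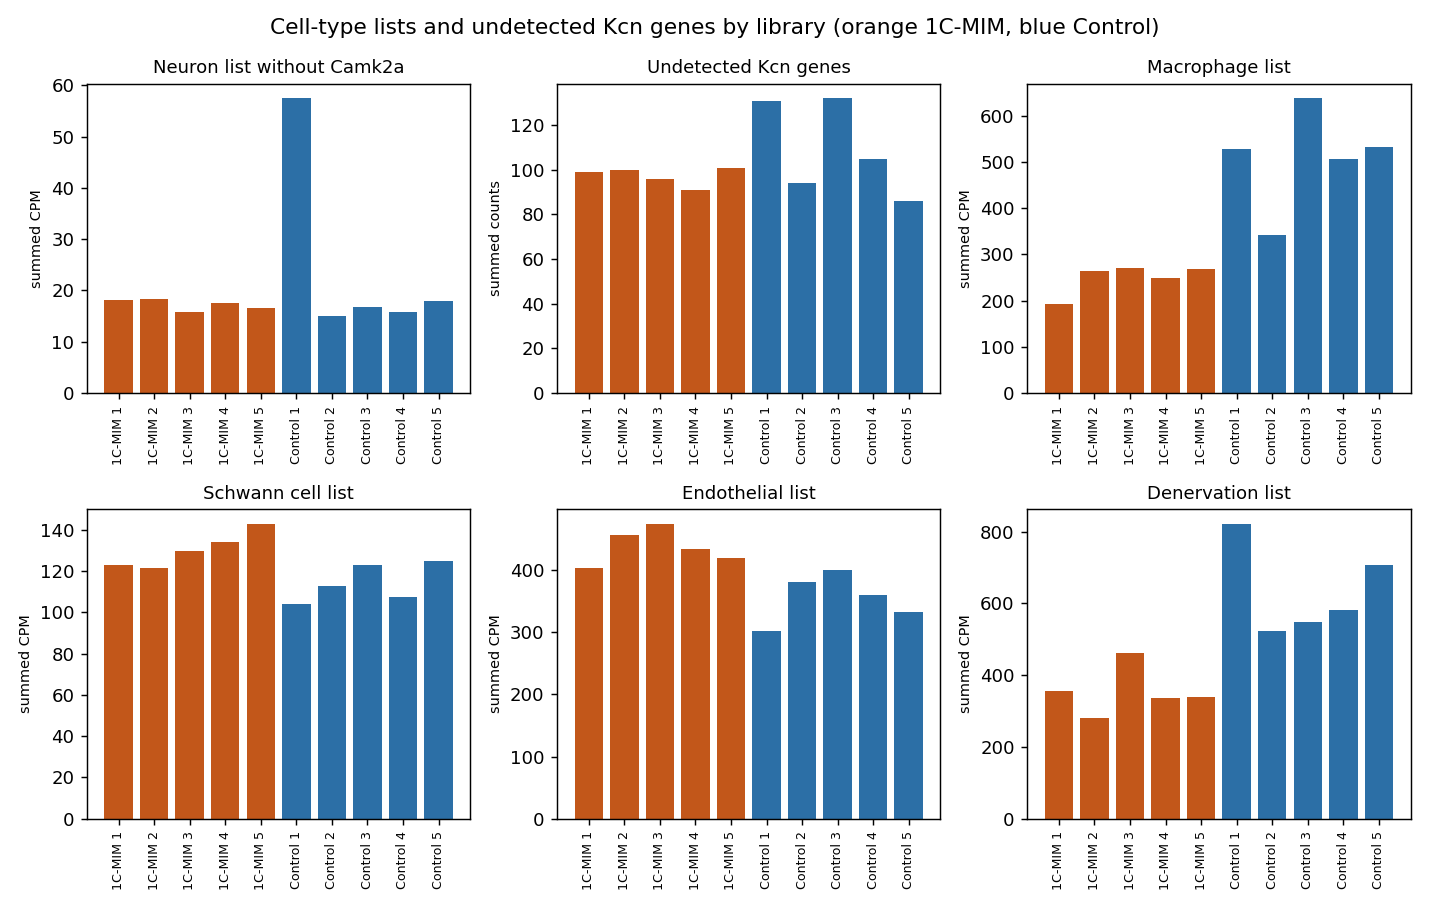
Summed CPM of 5 cell-type lists and summed counts of the 50 undetected Kcn genes in each library, 1C-MIM in orange and Control in blue. The neuron list without Camk2a is at 57.4 CPM in Control 1 and at 15.1 to 18.4 CPM in the other 9 libraries, while the undetected Kcn genes have 131 counts in Control 1 and 132 in Control 3.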

How the data were processed

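Quadriceps RNA of 5 1C-MIM and 5 Control animals was used, with groups from the titles. Per the file headers, each deposited table gives a count, an FPKM and a TPM per RefSeq transcript. The submitters' processing notes list the build GRCm39 and, among their tools, STAR, featureCounts, Subread 2.0.1, StringTie 2.2.1, Salmon 1.5.2 and DESeq2 1.28.0, with no role or order. The deposited counts are whole numbers, not normalized by the authors, and isoforms share reads; of 20 detected members with several transcripts, 17 had a second transcript reaching 80% of the leading one. FPKM values as deposited, scaled by the authors per kilobase and per library total, served only to recover transcript lengths, and the deposited TPM values were not used.

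The transcript with the largest summed count stood for a symbol, with ties going to the first identifier, which left out 45.3 to 47.4% of transcript counts. Genes kept by filterByExpr were scaled by TMM and compared with edgeR 4.0.16 (R 4.3.3), quasi-likelihood with robust dispersion; an SE is the log2 fold change over the root of F. CPM use effective library sizes. The length trend was a natural spline per library, entered as an offset. Alternatives used DESeq2 1.42.0, limma 3.58.1, other scalings, filters, blocks and left-out libraries. The model was tested on simulated data. No pair of libraries agreed within counting noise. Members, lists and alternatives were chosen with earlier results of these data known. Results of some genes are not reported here. Otherwise named are all called members, the 12 with the highest CPM per kilobase and those high in Control 1; other uncalled members were chosen after their values were seen. Same-numbered animals are not paired by the labels.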

Additional observations from a re-analysis of the deposited data

Results flagged for a closer look

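In 58 groups of 5 libraries, from the named members, 5 had a library whose gap to its nearest neighbour was large against the group's range. Kcna5, Kcna6 and Kcnj15 were in the set because they passed the test under alternatives, among them the omission of the library flagged here. Kcnd2 was in the set for its high level in Control 1. The chance rate of about 1 in 20 therefore does not apply to these members. Kcna5 was 6.14 CPM in 1C-MIM 3, against 8.56 to 9.51 CPM in the other 1C-MIM libraries. Kcna6 was 0.415 CPM in 1C-MIM 1, against 0.959 to 1.17 CPM in the others. Kcnd2 was 0.342 CPM in Control 1, against 0 to 0.0978 CPM in the other Controls, in the library with neuronal transcripts. Kcnj15 was 1.53 CPM in Control 2, against 0.705 to 0.943 CPM in the other Controls, and it passed the test without that library (edgeR log2 fold change 0.77, adjusted p = 0.0193). Kcnt1 was 0.103 CPM in Control 1, against 0.261 to 0.321 CPM in the other Controls.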

How the results depend on the processing

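Of the 14 calls, 7 held under every alternative that tested them (Kcna1, Kcnab1, Kcnab2, Kcne1l, Kcng4, Kcnn2 and Kcns1), 7 were lost under at least 1, and 0 changed sign. With any 1 library left out, 8 to 12 members were higher and 3 to 5 lower. An adjusted p under 0.1 gave 14 higher, and a filter of 1 CPM in 5 libraries gave 3 lower, since Kcnk13 and Kcnn4 were then not tested. Over all genes, library totals gave 606 higher and 2896 lower; leaving out 1C-MIM 3 gave 843 and 1057, 1C-MIM 4 739 and 941, Control 4 902 higher, and Control 1 with Control 5 832 and 976. With replicate number as a block, 12 members were higher and 4 lower, and the higher ones then included Kcna5, Kcnc1 and Kcnj2. The numbers are not shown to pair the animals, as same-numbered libraries correlated at -0.08 to 0.39 in their deviations. Signs of some uncalled members changed. Kcnj12 was -0.0500 with library totals and -0.0462 with the length trend removed, and Kcnq1ot1 -0.497 with that trend removed. Kcnk6 was 0.01001 without Control 1 and Control 5 together. With 1 library left out, Kcnn1 was -0.0408 to 0.0245 and Kcnq5 -0.182 to 0.0168. The cause was not tested. Counts of 3 to 50 per library limit Kcns1, Kcnk13 and Kcnt1.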

Other observations

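Within a library, the level of Kcnab2 per kilobase was 0.0296 to 0.0693 times that of Kcnab1 in 1C-MIM and 0.118 to 0.276 times in Control, highest in Control 1. The pair was chosen after its values were seen, and the ratio was not tested.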
